A study of Canis lupus familiaris with 4 samples.

Results

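Red blood cells, white blood cells and liver each carry a small set of miRNAs that other tissues make at far lower levels. The 7 miRNAs described here were chosen by name from the 673 rows of the deposited miRNA table. They are cfa-mir-144, cfa-mir-451 and cfa-mir-486-3p of red blood cells, cfa-mir-142, cfa-mir-150 and cfa-mir-223 of white blood cells, and cfa-mir-122 of liver. No row named cfa-mir-486 was in the table. Small RNA was sequenced from extracellular vesicles (EVs) of 2 canine mammary adenocarcinoma cell lines, with 2 libraries per line. CHMp comes from a primary tumor and its EVs are called pTDEs, and CHMm comes from a metastasis and its EVs are called mTDEs. Both lines were established from the same dog, so that each group stands for 1 cell line and not for a kind of tumor. Both were grown with 10% fetal bovine serum and gentamicin, washed with PBS and moved to medium without serum or antibiotics, from which the EVs were purified by filtration and ultracentrifugation.

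miR-451 and miR-144 come from neighboring hairpins of a shared primary transcript that is switched on as red blood cells mature. miR-451 is unusual in being cut by AGO2 and not by Dicer. miR-486 lies within the gene of the red cell membrane protein ankyrin 1 and is also made in muscle. miR-142 is made throughout the blood cell lineages, miR-150 in mature lymphocytes and miR-223 in neutrophils and monocytes, where it limits granulocyte expansion. miR-122 is the leading miRNA of hepatocytes and regulates lipid metabolism. All of them circulate in blood, in vesicles and bound to protein, and are found in serum. Mature miRNAs of this kind are highly conserved among mammals, and reads were assigned to dog miRNAs only, so the table does not tell a cow molecule from a dog one. By name, 6 of the 7 rows matched a RefSeq gene on the UU_Cfam_GSD_1.0 assembly. There MIR451 and MIR144 are direct neighbors between ERAL1 and FLOT2, MIR223 lies within VSIG4, and the other matched genes, MIR142, MIR150 and MIR122, overlap no other gene. cfa-mir-486-3p had no entry of that name.

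The levels are CPM, that is reads of a miRNA per 1000000 reads counted on miRNA rows, recovered from the deposited scores. The libraries held 6296517 and 5053535 reads in pTDE replicates 1 and 2, and 3457166 and 2330380 reads in mTDE replicates 1 and 2. Above 113 and 141 CPM in pTDE replicates 1 and 2 and above 203 and 264 CPM in mTDE replicates 1 and 2, the rounding of the scores spans more than 1 read. The read numbers of 9 of the 24 values above 0 of these miRNAs, among them most of those of cfa-mir-451, cfa-mir-486-3p and cfa-mir-122, are therefore approximate, by up to 2.70 reads. Intervals given for a single library are exact 95% binomial (Clopper-Pearson) intervals. They and the limits of 3 reads describe the error of counting alone, because PCR copies of a molecule are counted as separate reads. Both mates of a fragment may also have been counted, so that 6 reads could be 3 fragments. The study calls its replicates biological, and the labels do not say how they were separated (cultures, days or EV preparations), so p-values measure the spread between these libraries. Epithelial miRNAs, which mark the mammary epithelial origin, were abundant in mTDEs and largely absent from pTDEs: 4 of 7 (cfa-mir-200a, cfa-mir-200b, cfa-mir-141 and cfa-mir-429) were listed at 0 in both pTDE libraries and above 0 in both mTDE libraries, as were 2.15% of all 326 rows tested, and the sum of the list was 73.9 and 104 CPM in pTDEs against 23718 and 26413 CPM in mTDEs. limma called 6 of these 7 lower in pTDEs at an adjusted p-value under 0.05 (Benjamini-Hochberg). They were the only rows it called, 1.84% of all 326, so that this share holds no other row. The 4 listed at 0 in pTDEs entered the test through mTDEs alone.

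Of the 7 miRNAs, 6 were above 0 in all 4 libraries, and cfa-mir-144 was listed at 0 in every library. Together they made up 419 CPM (402.8 to 434.9) in pTDE replicate 1, 992 CPM (964.5 to 1020) in pTDE replicate 2, 1070 CPM (1036 to 1105) in mTDE replicate 1 and 3588 CPM (3512 to 3666) in mTDE replicate 2. The highest library was thus 8.57-fold above the lowest, with intervals that did not overlap, and the whole group took between 0.0419% and 0.359% of the reads. The order of the libraries by this sum was the reverse of their order by read number, the shallowest having the highest sum. The part of depth in the sum was not tested. Libraries of serum or of medium without cells were not among the samples analysed here, so miRNAs released by the cells and miRNAs that came with serum cannot be told apart. In EV preparations, fewer vesicles with a miRNA and fewer copies per vesicle cannot be told apart either.

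**Figure D1:**
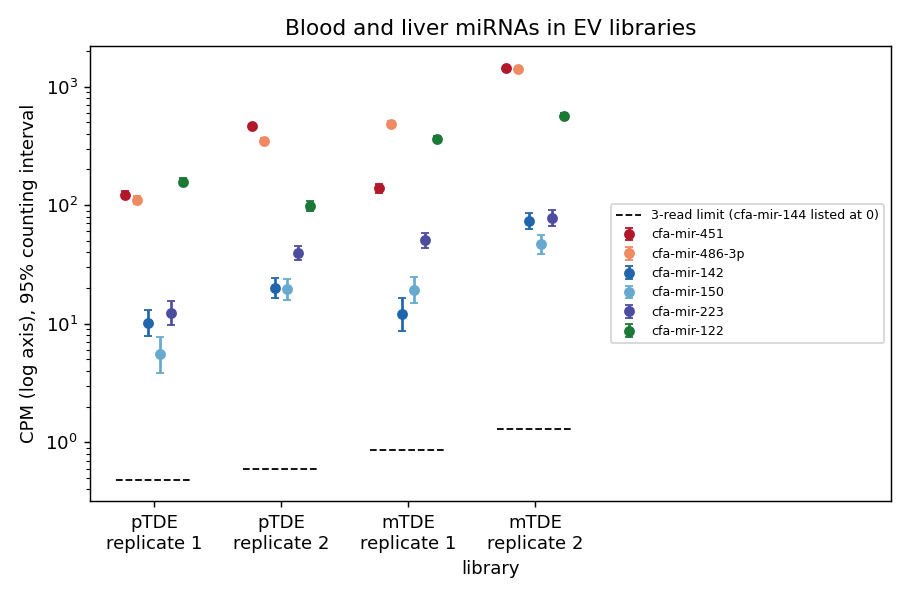
Level of each miRNA in each library in CPM on a log axis, with exact 95% counting intervals as bars and the limit of 3 reads as a dashed line. cfa-mir-451, cfa-mir-486-3p and cfa-mir-122 lie above the 3 white blood cell miRNAs in every library, and all 6 are highest in mTDE replicate 2.

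Among the red blood cell miRNAs, cfa-mir-451 was at 123 CPM (773 reads) and 465 CPM (2351 reads) in pTDE replicates 1 and 2, and at 138 CPM (478 reads) and 1423 CPM (3315 reads) in mTDE replicates 1 and 2. It was low in replicate 1 and high in replicate 2 of both cell lines, and the cell lines overlapped. By level it ranked 125 and 82 among the rows of the pTDE libraries and 119 and 71 among those of the mTDE libraries. cfa-mir-486-3p was at 110 CPM (692 reads) and 349 CPM (1762 reads) in pTDEs and at 485.9 CPM (1680 reads) and 1397 CPM (3257 reads) in mTDEs. Both mTDE libraries lay above both pTDE libraries, but mTDE replicate 1 exceeded pTDE replicate 2 by only 1.39-fold, less than the 3.17-fold between the pTDE replicates.

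cfa-mir-144, the neighbor of cfa-mir-451, was listed at 0 beside 478 to 3315 reads of cfa-mir-451. A count of 0 allows up to 0.476 and 0.594 CPM in the pTDE libraries and 0.868 and 1.29 CPM in the mTDE libraries, but only for reads that were kept for counting. The authors first removed reads under a minimum length close to that of mature miRNAs, and a mature form below it would have been lost whatever its level. The mature length of cfa-mir-144 is not given in the sources used here, so the 0 sets no limit on its level in the EVs, and the part of the length selection in its contrast with cfa-mir-451 was not tested. The ratio of cfa-mir-486-3p to cfa-mir-451 in CPM was 0.894 and 0.749 in the pTDE replicates and 0.982 in mTDE replicate 2, but 3.51 in mTDE replicate 1. In that library, cfa-mir-451 was near its level in pTDE replicate 1 while cfa-mir-486-3p was above both pTDE libraries. In mTDE replicate 2 the counting intervals of cfa-mir-451 (1375 to 1472 CPM) and cfa-mir-486-3p (1350 to 1446 CPM) overlapped.

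The white blood cell miRNAs were the lowest of those detected. cfa-mir-223 was at 12.4 CPM (78 reads) and 39.6 CPM (200 reads) in pTDE replicates 1 and 2, and at 50.6 CPM (175 reads) and 78.1 CPM (182 reads) in mTDE replicates 1 and 2. Both mTDE values were above both pTDE values, but mTDE replicate 1 exceeded pTDE replicate 2 by only 1.28-fold and their counting intervals (43.4 to 58.7 and 34.3 to 45.5 CPM) overlapped. cfa-mir-142 was at 10.2 CPM (64 reads) and 20.2 CPM (102 reads) in pTDEs and at 12.2 CPM (42 reads) and 73.4 CPM (171 reads) in mTDEs. Its high value in mTDE replicate 2 stood alone, since the counting interval of mTDE replicate 1 (8.76 to 16.4 CPM) overlapped that of pTDE replicate 1 (7.83 to 13.0 CPM).

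cfa-mir-150 was at 5.56 CPM (35 reads) and 19.6 CPM (99 reads) in pTDEs and at 19.4 CPM (67 reads) and 46.8 CPM (109 reads) in mTDEs. pTDE replicate 2 and mTDE replicate 1 could not be told apart in cfa-mir-150, with counting intervals of 15.9 to 23.9 and 15.0 to 24.6 CPM. The 3 white blood cell miRNAs together came to 28.1 and 79.3 CPM in pTDEs and to 82.2 and 198 CPM in mTDEs. The red blood cell miRNAs exceeded them by 8.27-fold and 10.3-fold in pTDE replicates 1 and 2 and by 7.597-fold and 14.2-fold in mTDE replicates 1 and 2. The red blood cell sum moved by 12.1-fold between the highest and lowest library and the white blood cell sum by 7.05-fold.

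cfa-mir-122, the liver miRNA, followed another order. It was at 158 CPM (994 reads) and 98.5 CPM (498 reads) in pTDE replicates 1 and 2, and at 364 CPM (1258 reads) and 570 CPM (1328 reads) in mTDE replicates 1 and 2. Both mTDE libraries were above both pTDE libraries, and the lower of the mTDE libraries was 2.31-fold above the higher of the pTDE libraries. Unlike the blood miRNAs it was lower in replicate 2 than in replicate 1 of pTDEs. Its ratio to cfa-mir-451 in CPM was 1.29 and 0.212 in the pTDE replicates and 2.63 and 0.400 in the mTDE replicates. Within a library, the order of cfa-mir-122, cfa-mir-451 and cfa-mir-486-3p changed: cfa-mir-122 was the highest of them in pTDE replicate 1, cfa-mir-486-3p in mTDE replicate 1, and cfa-mir-451 in the replicate 2 library of each line, narrowly so in mTDEs.

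The lists of miRNAs from other tissues gave a view of how often a tissue-restricted miRNA was found at all. Of 28 rows from muscle and heart, the nervous system, the pancreas and pluripotent cells, 4 were above 0 in all libraries and 12 were at 0 in all. The length selection applied to the reads of these rows too, so that a 0 need not mean absence from the EVs. Of the 28, 2 rows, cfa-mir-133c and cfa-mir-375, passed 100 CPM in a library, beside 3 of the 7 blood and liver miRNAs, and the difference was not tested. The table spells 4 more rows of these miRNAs in another way than the lists did. With them, a choice made after the values were seen, 13 of 32 rows were at 0 in all libraries and 3 passed 100 CPM, the third being cfa-mir-133a, whose values equal those of cfa-mir-133c. cfa-mir-133c, a muscle miRNA and the highest of its list, was at 168 and 346 CPM in pTDEs and at 0 and 111 CPM in mTDEs. cfa-mir-375, known from pancreatic islets and also made by epithelia, was at 1.27 and 6.74 CPM in pTDEs and at 349 and 210 CPM in mTDEs. The highest nervous system row, cfa-mir-129-1, stayed between 8.10 and 36.7 CPM, and the highest row of pluripotent cells, cfa-mir-302a, reached 0.861 CPM in mTDE replicate 2 and 0 elsewhere. Of the 12 rows of these 4 lists that were tested, limma called 0 at an adjusted p-value under 0.05, where 1.84% of all 326 rows were called, and 3 at an unadjusted one, where 19.6% were. These were cfa-mir-375 and the copies cfa-mir-1-1 and cfa-mir-1-2, which voom also called after adjustment (4.91% of all rows). Both copies were at 61.6 and 21.8 CPM in pTDEs and at 0 in both mTDE libraries. They thus entered the test through pTDEs alone.

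**Figure D2:**
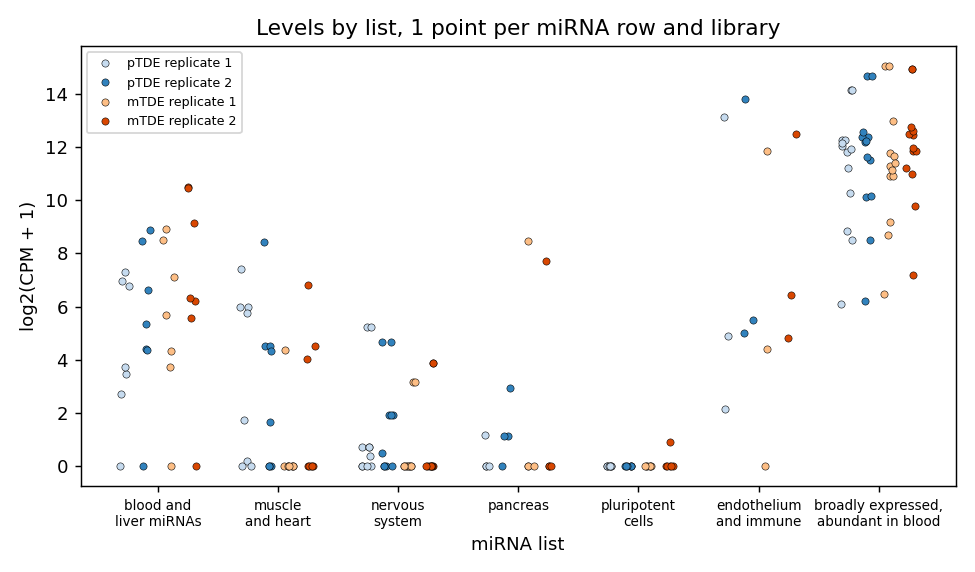
Level of each miRNA row on the log2(CPM + 1) scale, by list and library, with 1 point per row and library. Of the 28 rows of the muscle, nervous system, pancreas and pluripotent cell lists, between 4 and 14 are above 0 in a library, the blood and liver miRNAs other than cfa-mir-144 are above 0 in each, and the 13 rows that are abundant in blood but broadly expressed have medians of 2511 to 4664 CPM in the libraries.

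Other miRNAs that are abundant in blood are made by most cells. The 13 rows of that list in the table, such as cfa-mir-92a-1 (17897 and 25795 CPM in pTDEs, 33700 and 30798 CPM in mTDEs), summed to 66219 and 86420 CPM in pTDEs and to 94420 and 102786 CPM in mTDEs. Copies of 1 miRNA are each counted in that sum, as with cfa-mir-92a-1, whose copy has the same values. The sum differed by 1.55-fold between the highest and lowest library, against 8.57-fold for the blood and liver miRNAs. The other lists differed by 3.86-fold (endothelium and immune cells), 4.67-fold (nervous system), 20.9-fold (muscle and heart), 275-fold (pancreas) and 357-fold (epithelial). That of pluripotent cells had no such fold, being at 0 in some libraries. Differences between these folds were not tested. Replicate 2 was above replicate 1 in both lines in 6 of the 13 rows, some of which are copies of 1 miRNA. Of the 13 rows, limma called 0 at an adjusted p-value under 0.05 (1.84% of all rows) and 1, cfa-mir-423a, at an unadjusted one (19.6% of all rows), and voom called 0 after adjustment (4.91% of all rows).

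In serum and plasma work, miR-451 is often read against miR-23a, whose level changes little when red blood cells break. cfa-mir-23a was at 302 and 204 CPM in pTDEs and at 621 and 722 CPM in mTDEs. The ratio of cfa-mir-451 to cfa-mir-23a was 0.406 in pTDE replicate 1 and 2.28 in pTDE replicate 2, and 0.223 in mTDE replicate 1 and 1.97 in mTDE replicate 2. cfa-mir-451 thus lay below cfa-mir-23a in both replicate 1 libraries and above it in both replicate 2 libraries. On the log2 scale the cell lines differed by 0.54 (pTDEs minus mTDEs), a two-sided exact permutation p of 0.667, where the smallest p that 2 against 2 libraries allow is 0.33. The difference turned to -0.70 without pTDE replicate 2 and to -1.03 without mTDE replicate 1, so it had no stable direction. The labels do not say what a replicate number marks. The paper names both HiSeq and NovaSeq instruments and different read lengths, and the instrument of each library is not given in the sources used here. The part of instrument and read length in the difference between replicates was not tested.

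The median distance between replicates was larger over these miRNAs than over all rows, a difference that was not tested. On the log2(CPM + 1) scale, the median absolute difference between replicates was 1.62 in pTDEs and 1.38 in mTDEs over the 6 detected miRNAs, against 0.64 and 0.91 over the 326 rows tested. In mTDEs, cfa-mir-223 (0.61) and cfa-mir-122 (0.65) lay below the median of all rows. Replicate 2 was above replicate 1 in both cell lines in 5 of the 6, all but cfa-mir-122, against 33.1% of all rows tested. Replicate 2 exceeded replicate 1 in 5 of the 6 in pTDEs, against 48.8% of all rows, and in all 6 in mTDEs, against 64.1%. In pTDEs, 4 of the 6 (cfa-mir-451, cfa-mir-486-3p, cfa-mir-150 and cfa-mir-223) were higher in replicate 2 by at least 1 on this scale, against 15.0% of all rows. In mTDEs, 4 of the 6 (cfa-mir-451, cfa-mir-486-3p, cfa-mir-142 and cfa-mir-150) were, against 38.3%. The largest difference was that of cfa-mir-451 in mTDEs, 10.3-fold in CPM. All 6 were highest in mTDE replicate 2, as were 45.4% of all rows, and 5 of 6 were lowest in pTDE replicate 1, as were 22.4%.

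**Figure D3:**
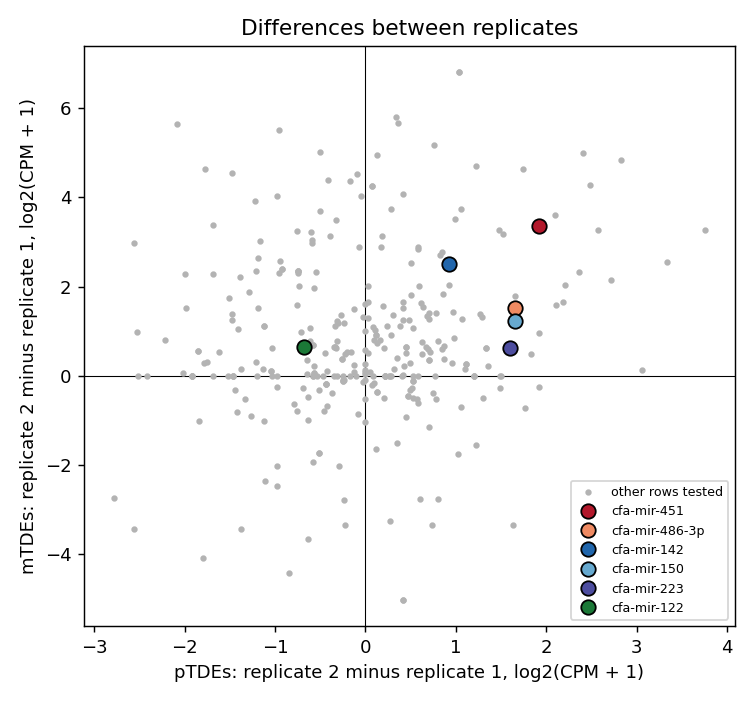
Difference between replicate 2 and replicate 1 on the log2(CPM + 1) scale in pTDEs (horizontal) and mTDEs (vertical) for the 326 rows tested. The 5 blood miRNAs detected lie in the upper right, higher in replicate 2 of both lines, and cfa-mir-122 lies to the left of 0 in pTDEs and above 0 in mTDEs.

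The comparison of the cell lines asked whether the blood and liver miRNAs differed between pTDEs and mTDEs. All 6 detected miRNAs had a lower mean in pTDEs than in mTDEs, but limma called none at an adjusted p-value under 0.05 (Benjamini-Hochberg over 326 rows, on the log2(CPM + 1) scale). It called 1.84% of all rows, each of them an epithelial miRNA that was lower in pTDEs. At an unadjusted p-value under 0.05, limma found 1 of the 6, cfa-mir-122, against 19.6% of all rows and 9.51% in that direction, and limma voom on the recovered reads also called 0 at the adjusted threshold, against 4.91% of all rows, and found 1, again cfa-mir-122, at the unadjusted one, against 20.2%. cfa-mir-144 could not be tested. The median log2 fold change (pTDEs over mTDEs) was -1.44 over the 6, beside -0.03 over all rows tested, of which 50.9% were negative.

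In pTDEs cfa-mir-122 averaged 128 ± 41.9 CPM (SD, n = 2) and in mTDEs 467 ± 146 CPM (SD, n = 2), 3.64-fold higher in mTDEs. Its log2 fold change was -1.86 (standard error 0.57, 95% interval -3.40 to -0.32), with an adjusted p of 0.17 from limma. That fold change kept its sign with any library left out, as it must where both mTDE libraries lie above both pTDE libraries. In pTDEs cfa-mir-486-3p averaged 229 ± 169 CPM (SD, n = 2) and in mTDEs 942 ± 645 CPM (SD, n = 2), and its log2 fold change was -2.07 (standard error 0.87, interval -4.40 to 0.26, limma adjusted p = 0.28). cfa-mir-223 averaged 26.0 ± 19.2 and 64.4 ± 19.4 CPM, with a log2 fold change of -1.46 (interval -4.04 to 1.13, limma adjusted p = 0.43). These 3 of the 6 had both mTDE libraries above both pTDE libraries, as did 27.3% of all rows, with overlapping counting intervals in the case of cfa-mir-223, while 0 of the 6 and 26.1% of all rows had the opposite order.

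The remaining 3 overlapped between the lines. cfa-mir-150 averaged 12.6 ± 9.93 CPM in pTDEs and 33.1 ± 19.4 CPM in mTDEs, and cfa-mir-142 averaged 15.2 ± 7.09 and 42.8 ± 43.3 CPM (SD, n = 2 for each). Their log2 fold changes were -1.42 (interval -4.32 to 1.47) and -1.02 (interval -4.29 to 2.24). cfa-mir-451 averaged 294 ± 242 CPM in pTDEs and 781 ± 908 CPM in mTDEs, with the widest interval of the 6, from -4.58 to 2.80 around a log2 fold change of -0.89 (limma adjusted p = 0.76). Its sign rested on single libraries: without mTDE replicate 2 the log2 fold change was 0.79, and without pTDE replicate 1 it was 0.07. That of cfa-mir-142 was 0.23 without mTDE replicate 2. Without pTDE replicate 1 the log2 fold changes of cfa-mir-486-3p, cfa-mir-223 and cfa-mir-150 were -1.24, -0.66 and -0.60, and without pTDE replicate 2 they were -2.90, -2.25 and -2.25. With intervals this wide, the direction of a difference was not resolved in cfa-mir-451, cfa-mir-142 and cfa-mir-150, nor in cfa-mir-223 and cfa-mir-486-3p.

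**Figure D4:**
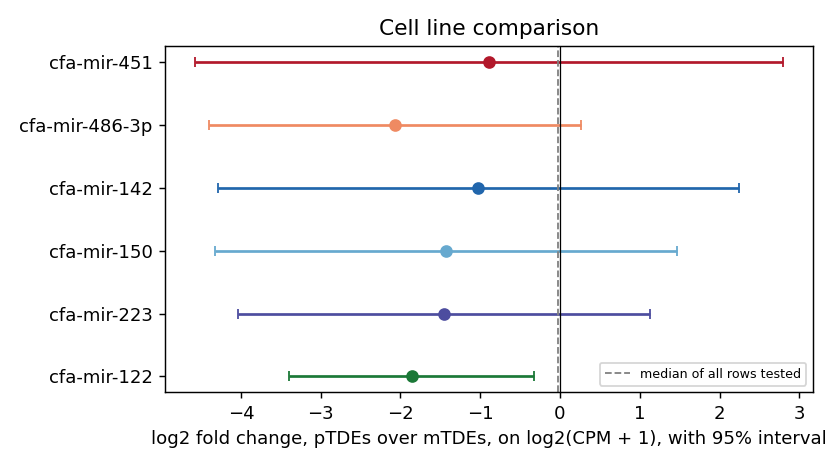
Log2 fold change of each detected miRNA, pTDEs over mTDEs, on the log2(CPM + 1) scale with its 95% interval from limma, and the median of all rows tested as a dashed line. All 6 estimates lie below 0, and only the interval of cfa-mir-122 (-3.40 to -0.32) leaves out 0.

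The sum over the blood and liver miRNAs averaged 705 ± 405 CPM (SD, n = 2) in pTDEs and 2329 ± 1780 CPM (SD, n = 2) in mTDEs, a difference of -1.60 in mean log2 CPM (two-sided exact permutation p = 0.33, the smallest the design allows). mTDE replicate 1 and pTDE replicate 2 were close, at 1070 and 992 CPM, and without cfa-mir-122 their order turned, at 706 and 893 CPM. The difference in mean log2 CPM was -0.73 without mTDE replicate 2 and -2.48 without mTDE replicate 1. The replicate 2 to replicate 1 ratio of the sum, 2.37 in pTDEs and 3.35 in mTDEs, was of the same order as the 3.30-fold between the means of the cell lines.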

How the data were processed

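Small RNA of EVs from 2 cell lines was sequenced in 4 libraries, grouped by the cell line and replicate in their titles. The authors used cutadapt to remove adapters and to keep reads in a set length range, pooled both mates of each sample, and quantified known and predicted dog miRNAs with miRDeep2 on CanFam3.1. Tool versions are not given in the sources used here. The deposited values per library are treated as a score: the authors' methods speak of CPM, yet the values are whole numbers with the spacing of log values. The deposited table also holds the authors' own comparison of the cell lines, which was not used.

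CPM were recovered as 2^(score/s) - 1, with s solved for each library so that it totals 1000000 CPM. The worth of 1 read was the largest step of which all values under 20 CPM are whole multiples within rounding. Of the distinct values from 20 to 50 CPM, which were not used to find it, 100% were whole multiples within rounding in 3 libraries and 96.8% in mTDE replicate 2, where rounding covers 15.2% to 36.6% of the distance between multiples. Most rows are named by precursor with no arm, and for those the arm counted is not stated. Predicted and known rows, 165 and 508, entered the tests if either cell line had both of its libraries above 0. limma 3.58.1 in R 4.3.3 was fitted to log2(CPM + 1) with a mean-variance trend (prior degrees of freedom 2.4), and Python 3.11.15 with scipy 1.17.1 gave the exact tests and intervals. The fold change on this scale understates changes of low miRNAs. The conversion and the fit were tested on simulated data. The miRNAs named are the 7 chosen by name, cfa-mir-23a, the highest row of each comparison list, and the 5 rows with the most similar pattern; rows of the epithelial list at 0 in pTDEs, cfa-mir-1-1, cfa-mir-1-2, cfa-mir-133a, cfa-mir-423a, cfa-mir-126 and cfa-mir-146a were named after their values were seen. These miRNAs and lists were chosen with earlier results of these data known. Alternatives were other pseudocounts (0.1 and 5 CPM), row filters, scalings and models, a replicate block, and leaving out each library. No sequences of these miRNAs were in the sources used here.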

Additional observations from a re-analysis of the deposited data

How the results depend on the processing

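None of the 6 miRNAs had an adjusted p-value under 0.05 in limma or in any of the 15 alternatives, including voom and the replicate block, with adjusted p-values of 0.140 or more. Row filters, eBayes without trend and the replicate block leave the log2 fold changes unchanged, so their signs repeat the main fit. With these counted, the log2 fold changes of the 6 were negative in 93 of 96 fits, the main one included. The exceptions were cfa-mir-451 when pTDE replicate 1 (0.07) or mTDE replicate 2 (0.79) was dropped and cfa-mir-142 when mTDE replicate 2 was dropped (0.23), and dropping each library in turn gave -2.57 to 0.79 for cfa-mir-451 and -2.27 to 0.23 for cfa-mir-142. The median over the 6 of -1.44 moved between -2.23 and -0.63 when single libraries were dropped, and to -0.23 when the scores themselves stood in for CPM, which compresses the scale. Median-ratio scaling moved the median of all rows from -0.03 to 0.22 and that of the 6 to -1.21. The log2 ratio of cfa-mir-451 to cfa-mir-23a (0.54, pTDEs minus mTDEs) moved between -1.03 and 2.11 when single libraries were dropped. The sum over the miRNAs kept its sign in all alternatives run for it, from -2.48 to -0.21. Over all rows, limma made 6 calls. There were 39 at a pseudocount of 0.1 CPM, 50 on the unconverted scores, 14 after median-ratio scaling, 13 if eBayes had no trend, 16 by voom, 13 among known miRNAs and between 0 and 41 when single libraries were dropped, where the lone library is assumed to vary like the others. The cause was not tested. A replicate block gave 7 calls over all rows, and the deviations of same-numbered libraries correlated at 0.15 across rows; 2 pairs do not show that numbers pair the libraries.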

Other observations

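Of 3 further miRNAs of endothelium and immune cells, each was higher in replicate 2 than in replicate 1 of both cell lines. limma called 0 of the 3 between the cell lines at an adjusted p-value under 0.05 (1.84% of all rows) and 1, cfa-mir-155, at an unadjusted one (19.6% of all rows), and voom called 0 after adjustment (4.91% of all rows). cfa-mir-126, which marks endothelium and platelets, was at 3.49 and 30.8 CPM in pTDEs and at 0 and 27.5 CPM in mTDEs. cfa-mir-146a, an inhibitor of inflammatory signaling, was at 29.1 and 44.3 CPM in pTDEs and at 20.2 and 84.9 CPM in mTDEs. cfa-mir-155, made by activated immune cells and by many tumors, was far higher than the blood miRNAs, at 9027 and 14316 CPM in pTDEs and at 3708 and 5803 CPM in mTDEs.

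Among the 225 other rows above 0 in all libraries, the 5 whose centered log2(CPM + 1) came closest to the mean of the 6 detected miRNAs were cfa-mir-8859b (root mean square difference 0.22), cfa_novel_33 (0.29), cfa-mir-22 (0.30), cfa_novel_17 (0.33) and cfa_novel_126 (0.33), where the median row was at 1.10. The measure rests on 4 libraries. cfa-mir-8859b was at 143 and 301 CPM in pTDEs and at 462 and 1114 CPM in mTDEs. cfa-mir-22, a broadly expressed miRNA, was at 1562 and 2084 CPM in pTDEs and at 2427 and 6929 CPM in mTDEs. Among the miRNAs themselves, cfa-mir-150 was closest to their mean (0.22), and cfa-mir-122 (0.77) and cfa-mir-451 (0.72) were farthest from it.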
